A study of Homo sapiens with 36 samples.

Results

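The comparison described here set HCT116 cells in which the UHRF1 protein carried an auxin-inducible degron (UHRF1-AID) against HCT116 cells without a tag on UHRF1 (WT), both after 6 days of auxin. HCT116 is a human colorectal cancer cell line. The members are the 6 libraries of these groups, 3 of UHRF1-AID and 3 of WT, of 36 libraries in the series, and they were chosen by genotype and day as the labels give them. The series also holds DNMT1-AID cells and cells with both degrons, each on days 2, 6 and 8. All of these cells carried OsTIR1, the plant F-box protein that couples auxin to degradation of a tagged protein, under a doxycycline-inducible promoter, and all, WT included, received doxycycline with auxinole, an inhibitor of OsTIR1, and then doxycycline with auxin. RNA was polyadenylated RNA sequenced in bulk, and the deposited values were read counts per gene. The study calls its replicates biological triplicates and names clones as the usual replicates of its degron lines, but the labels do not say which clone gave which library. The p-values therefore measure the spread between libraries of the same group, estimated over all 36 libraries and not over these 6 alone. A difference between clones cannot be told apart from the loss of UHRF1.

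UHRF1 is a chromatin protein that recognizes hemimethylated DNA behind the replication fork and brings the maintenance methyltransferase DNMT1 to it, so that the pattern of CpG methylation is copied to the new strand. In cells without this step methylation is diluted at each division. Genes whose promoters are kept silent by methylation in somatic and tumour cells include cancer-testis antigens of the X chromosome and other germline genes, and double-stranded RNA from silenced repeats is known to start an interferon response. The questions addressed by the comparison are which genes were expressed differently 6 days after UHRF1 was removed, and whether the genes of interferon signalling, inflammation and cell-cycle arrest that the study followed were among them.

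The 6 libraries held between 21588262 and 31772459 counted reads, within the range of 21074536 to 37175136 over the series. Values below are CPM, counts scaled to the same number of protein-coding reads in every library after TMM normalization. One library stood apart. UHRF1-AID replicate 2 differed from UHRF1-AID replicates 1 and 3 by a chi-square per degree of freedom of 56.3 and 56.2 over genes, against 13.2 between UHRF1-AID replicates 1 and 3 and 3.74 to 4.17 between WT libraries. It had 1.36% of its counts in mitochondrial genes, against 3.69% and 3.70% in the other UHRF1-AID libraries and 3.44% to 3.94% in WT. It also lay apart on a second principal component that held 2.28% of the variance, while the first component, with 94.5%, separated the genotypes. Results are therefore also given without this library for many of the lists and genes below. The median standard deviation of log2 CPM over replicates was 0.155 in UHRF1-AID and 0.078 in WT.

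The degron removes protein, so UHRF1 mRNA does not check it. UHRF1 mRNA (chromosome 19, 4903080 to 4962154, GRCh38) was at 139, 152 and 158 CPM in UHRF1-AID and at 127, 125 and 124 CPM in WT. The UHRF1-AID libraries were all above WT, but the log2 fold change of 0.26 ± 0.25 (SE) did not pass the test (edgeR quasi-likelihood adjusted p = 0.488). It did pass when the 6 libraries were fitted alone (UHRF1 log2 fold change 0.27, edgeR adjusted p = 0.0194). DNMT1 mRNA was at 231, 210 and 233 CPM in UHRF1-AID and 227, 222 and 231 CPM in WT, and these groups overlapped (log2 fold change -0.01 ± 0.20, edgeR adjusted p = 0.971). Of 41 tested genes of the methylation and heterochromatin machinery, 1 rose and 4 fell, where 14.3% of all genes rose and 10.5% fell, so the number that fell was near the share over all genes. The one that rose was EZHIP, an inhibitor of the Polycomb methyltransferase that is normally confined to germ cells, which had 144 reads in the 3 UHRF1-AID libraries and 0 in WT. Among those that fell were HELLS, a remodeller needed for DNA methylation (32.2 CPM in UHRF1-AID, 49 CPM in WT), and TET3, an oxidase of methylcytosine (22.7 CPM in UHRF1-AID, 34.9 CPM in WT).

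Expression differed mostly in one direction. Of 15415 protein-coding genes tested, 1036 (6.72%) were more than 2-fold higher in UHRF1-AID than in WT and 104 (0.675%) were more than 2-fold lower, at an edgeR adjusted p below 0.05. At any fold, 2201 genes (14.3%) rose and 1614 (10.5%) fell. The 3 libraries a side did not overlap in 6792 of the 15415 genes, so a lack of overlap was common. The genes above 2-fold were mostly ones with little or no mRNA in WT: 758 of the 1036 had a mean below 0.5 CPM in WT, and 262 had no read in any WT library. Their median level in WT was 0.0824 CPM, against 5.62 CPM for the 104 lower genes and 23.5 CPM for all genes tested. Of the higher genes 789 passed 4-fold and 443 passed 16-fold, whereas 16 of the lower genes passed 4-fold. The median log2 fold change was 3.54 in the higher genes, or 2.97 with each gene at 0 reads in WT set to a floor of 3 reads over the group, and -1.35 in the lower genes, while that of all genes was -0.0048. In bulk RNA a change in the number of cells that express a gene and a change in RNA per cell cannot be told apart. Without UHRF1-AID replicate 2 the counts were 973 higher and 105 lower, with 904 and 75 genes shared with the fit to all libraries. The number of higher genes was 780 when the 6 libraries were fitted alone. That fit took its filter on low counts, its scaling and its spread from these 6 libraries.

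**Figure D1:**
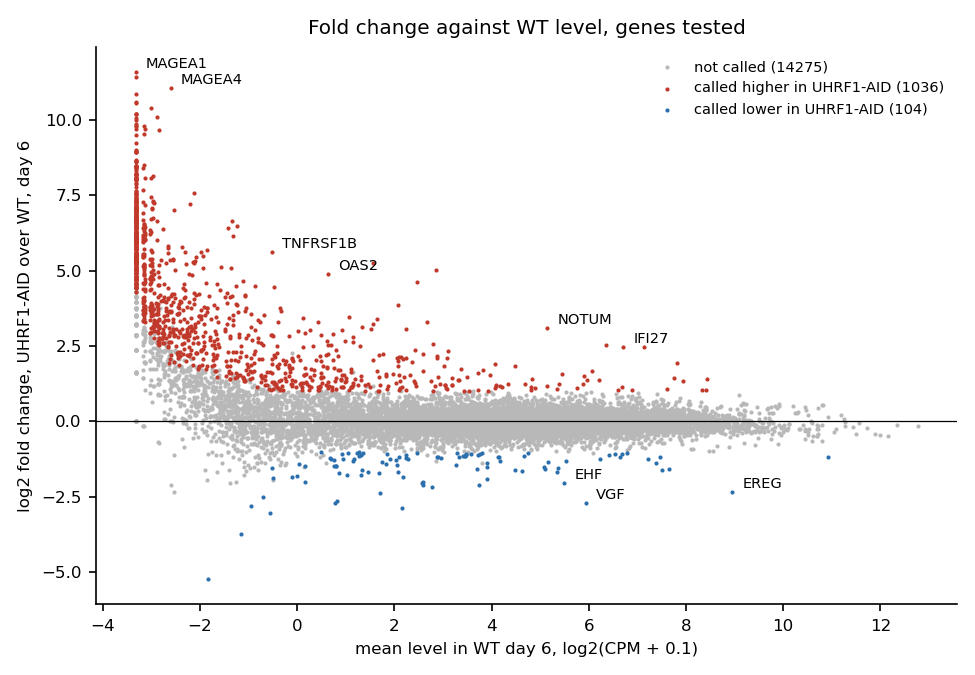
Each point is 1 of 15415 protein-coding genes, with its level in WT on day 6 on the x axis (log2 of CPM plus 0.1) and the log2 fold change of UHRF1-AID over WT on the y axis. The 1036 genes higher in UHRF1-AID are red and lie mostly at the low end of the WT level, the 104 lower genes are blue and the rest are grey.

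The higher genes were unevenly spread over chromosomes. On chromosome X 108 of 593 tested genes (18.2%) were more than 2-fold higher in UHRF1-AID and 0 were more than 2-fold lower. On the other nuclear chromosomes with tested genes the share of higher genes lay between 2.62% on chromosome 18 and 9.57% on chromosome 17, against 6.72% of all genes. A gene silent in WT was tested only if another group expressed it, so these shares describe the tested genes and not whole chromosomes. Many of the cancer-testis antigens described next lie on chromosome X.

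Cancer-testis antigens, proteins of male germ cells that reappear in tumours, were prominent among the largest changes. Of 41 genes on this list 34 passed the filter on low counts and were tested. Of these, 28 rose and 0 fell (14.3% and 10.5% of all genes), all 28 by more than 2-fold, and the same count was obtained with each of the 6 libraries left out in turn. The median log2 fold change of the list was 6.08, or 4.83 with the 20 members at 0 reads in WT placed at their floor, against -0.0048 over all genes. A gene that is silent in WT passes the filter only through a group in which it is expressed, so these counts describe the members tested and not the whole list. The same limit holds for every other list with untested members. The promoter of MAGEA9B, a MAGE-A antigen that was not on this list, is shown because its gene was among the highest changes. It is the 250 bases upstream of the RefSeq start, at chrX:149587460-149587709 on the minus strand of GRCh38.p14, with its 7 CpGs in capitals:
MAGEA9B: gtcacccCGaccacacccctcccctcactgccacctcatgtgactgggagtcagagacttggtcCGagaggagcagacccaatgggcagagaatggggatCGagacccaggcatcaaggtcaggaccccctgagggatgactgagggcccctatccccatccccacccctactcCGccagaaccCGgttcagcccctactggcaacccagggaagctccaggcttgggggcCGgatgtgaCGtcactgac
Its observed over expected CpG ratio was 0.282. Over the 29 list members with a RefSeq window of this kind the median was 10 CpGs (quartiles 7 and 13), against 11 (quartiles 3 and 23) over 27305 genes of the RefSeq table.

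MAGEA9B was at 35.9, 46.6 and 42.1 CPM in UHRF1-AID and at 0.0383, 0 and 0.0343 CPM in WT. It is a near-identical copy of MAGEA9, so the split of reads between the copies is uncertain. The ratio of their CPM rested on 2 reads in WT and was 1629 for MAGEA9B (95% counting interval 450.64 to 13456; edgeR adjusted p = 8.29e-20).

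MAGEA1 (chromosome X, 153179284 to 153183880), the founding member of the MAGE family, was at 12.5, 16.7 and 18.4 CPM in UHRF1-AID and at 0 CPM in all 3 WT libraries, which makes it at least 418-fold higher against the floor of 3 reads over the group (edgeR adjusted p = 3.12e-12). MAGEA11, a MAGE protein known to bind the androgen receptor, was at 11.1, 15.6 and 15.8 CPM in UHRF1-AID, likewise against 0 in WT, and was at least 373-fold higher. MAGEA4 was at 73.7, 205 and 165 CPM in UHRF1-AID and at 0.0383, 0.0877 and 0.0687 CPM in WT. The difference of means was 2283-fold (log2 fold change 11.06 ± 1.34, edgeR adjusted p = 1.34e-06), but it rests on few reads in WT and is imprecise. UHRF1-AID replicate 1 was the lowest of its group for each of these genes, and no UHRF1-AID library overlapped WT.

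CTAG2, which encodes the LAGE-1 antigen, was at 10.8, 20.2 and 17.1 CPM in UHRF1-AID and at 0.0383, 0 and 0 CPM in WT, where it had 1 read in all. PNMA5, of the paraneoplastic antigen family on chromosome X, was not on the list but was among the 10 largest changes, with 13.8, 18.5 and 12.9 CPM in UHRF1-AID and 0, 0.0439 and 0 CPM in WT. Members at lower levels, such as GAGE1 (0.493 CPM in UHRF1-AID, 0 in WT), SSX2 (1.34 CPM in UHRF1-AID, 0 in WT) and PAGE5 (1.49 CPM in UHRF1-AID, 0 in WT), belong to families of close copies and their individual values are uncertain.

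The 6 members that did not pass the test were of different kinds. MAGEA3 and MAGEB2 were already expressed in WT, at 85.2 and 181 CPM, and stood at 91.1 and 182 CPM in UHRF1-AID. MAGEC1, MAGEC2 and VCX3A were below 0.12 CPM in UHRF1-AID and at 0 in WT, and CT83 had no read in either group. MAGEA6, a close copy of MAGEA3, was at 24.2 CPM in UHRF1-AID and 9.01 CPM in WT and did rise.

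Among the 31 tested of 45 listed genes of meiosis and germline RNA silencing, 13 rose and 1 fell (14.3% and 10.5% of all genes). The median log2 fold change was 1.62, or 0.825 with the 8 members at 0 reads in WT at their floor. Members silent in WT were again tested only if another group expressed them. TDRD1, a Tudor protein of the piRNA pathway, was at 0.903, 1.46 and 0.727 CPM in UHRF1-AID and at 0 CPM in the 3 WT libraries. MAEL, which acts in transposon silencing in the testis, was at 0.686, 1.49 and 1.88 CPM in UHRF1-AID and at 0, 0.0439 and 0 CPM in WT. BOLL and DAZL, RNA-binding proteins of germ cells, had 53 and 28 reads in UHRF1-AID and 0 in WT. The synaptonemal complex gene SYCP3 (0.889 CPM in UHRF1-AID, 0.995 CPM in WT) and the meiotic cohesin STAG3 (11.6 CPM in UHRF1-AID, 8.71 CPM in WT) did not pass the test. The gene that fell, GTSF1, lost its call when UHRF1-AID replicate 2 or any one WT library was left out. Of the list 10 genes rose without UHRF1-AID replicate 2, and 9 rose without any one WT library. NR5A1, a nuclear receptor of steroid-producing tissue outside these lists, was at 21.2, 25.4 and 29.9 CPM in UHRF1-AID and 0.23, 0.0877 and 0.0687 CPM in WT.

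**Figure D2:**
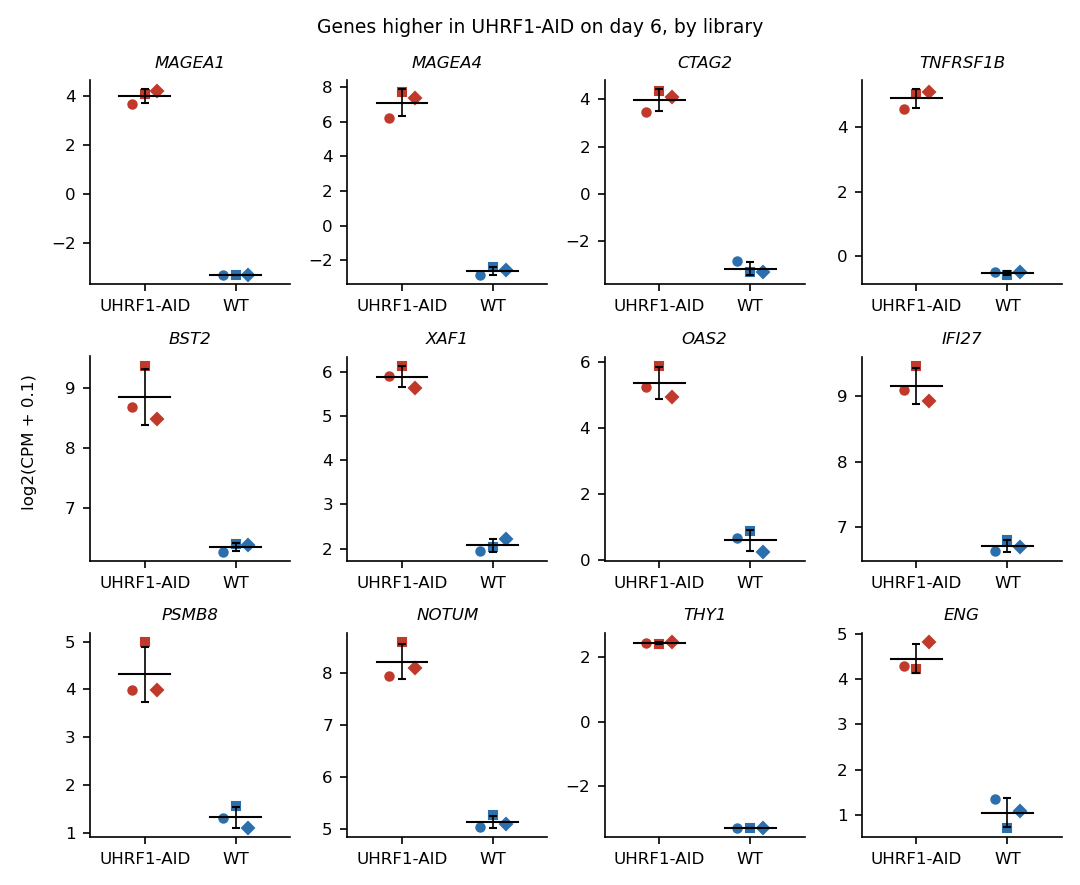
Levels of 12 genes that were higher in UHRF1-AID, as log2 of CPM plus 0.1 in each library on day 6, with UHRF1-AID on the left and WT on the right of each panel. Circles, squares and diamonds are replicates 1, 2 and 3, and the line and bar are the mean and SD. The groups do not overlap in any panel, as in 6792 of the 15415 genes tested.

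The interferon system is described from ligands to effectors. Type III interferons (IFNL1, IFNL2 and IFNL3) signal through the IFNLR1 and IL10RB receptor chains to the JAK kinases and the transcription factor complex ISGF3, which induces interferon-stimulated genes. IFNL1 was at 0.795, 0.949 and 0.485 CPM in UHRF1-AID and 0.153, 0.439 and 0.309 CPM in WT. The groups did not overlap, but its log2 fold change of 1.31 ± 0.57 did not pass the test (edgeR adjusted p = 0.0906). IFNL1 did pass when the replicate number was added to the fit as a block, as given below. IFNL2 was at 0.542, 0.316 and 0.363 CPM in UHRF1-AID and 0.153, 0.395 and 0.137 CPM in WT, which overlapped (edgeR adjusted p = 0.313), and its reads may be shared with the near-identical IFNL3. The mean levels of IFNLR1 (16 CPM in UHRF1-AID, 19.5 CPM in WT) and IL10RB (29 CPM in UHRF1-AID, 31.1 CPM in WT) did not pass the test either, although IFNLR1 did with a correction for GC content and length (log2 fold change -0.39, edgeR adjusted p = 0.0326).

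Of the 24 tested of 28 listed ligands, receptors and JAK-STAT members, 5 rose and 1 fell (14.3% and 10.5% of all genes), with none beyond 2-fold. The highest of the passing changes was in IRF7, the transcription factor that amplifies interferon induction, at 226, 305 and 224 CPM in UHRF1-AID and 152, 169 and 162 CPM in WT (log2 fold change 0.65 ± 0.14, edgeR adjusted p = 0.000745). The other 4 that rose were the feedback inhibitors SOCS1 and SOCS3, the kinase TYK2 and the transcription factor IRF3, and IRF5 fell.

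Among the 58 interferon-stimulated genes, 21 rose and 0 fell (14.3% and 10.5% of all genes), with a median log2 fold change of 0.396 against -0.0048 over all genes. Without UHRF1-AID replicate 2, 17 rose and the median was 0.229. The list did not move as a block: 15 members were more than 2-fold higher while 37 did not pass the test. The 15 were GBP4, RTP4, MX1, OAS2, XAF1, TRIM22, UBA7, BST2, MX2, IFI27, IFITM1, APOL6, APOL1, IFI44L and PARP10. Members that did not pass included IFIT1 (391 CPM in UHRF1-AID, 337 CPM in WT), IFI6 (2618 CPM in UHRF1-AID, 1817 CPM in WT) and OAS3 (872 CPM in UHRF1-AID, 720 CPM in WT).

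The promoter of BST2, which encodes the virus-tethering protein tetherin, is shown because this gene rose and holds the element bound by ISGF3. The 250 bases upstream of its RefSeq start are at chr19:17405631-17405880 on the minus strand of GRCh38.p14, and capitals mark 2 overlapping matches to the interferon-stimulated response element, searched on both strands as GAAA, any 2 bases and GAAA:
BST2: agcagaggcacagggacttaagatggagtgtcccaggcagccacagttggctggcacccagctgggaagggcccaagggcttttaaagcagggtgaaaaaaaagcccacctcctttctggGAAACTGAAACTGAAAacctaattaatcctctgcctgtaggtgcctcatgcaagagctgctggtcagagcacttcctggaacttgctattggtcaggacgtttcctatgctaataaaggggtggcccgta
The match nearest the start begins 124 bases before it. Of the 47 interferon-stimulated genes with a RefSeq window, 30 (63.8%) held this element, against 3.71% of the 27305 genes of the table. Of the 21 members that rose, 12 had a window and 8 of these (66.7%) held the element, a share near that of the whole list. These letters describe the promoters and do not show that the factor was bound.

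BST2 was at 409, 659 and 357 CPM in UHRF1-AID and at 77.8, 84.7 and 84.1 CPM in WT (log2 fold change 2.53 ± 0.18, edgeR adjusted p = 9.94e-12). OAS2, which makes the 2′-5′ oligoadenylates that activate RNase L, was at 37.8, 59.6 and 31 CPM in UHRF1-AID and 1.49, 1.75 and 1.1 CPM in WT, a 29.5-fold difference of means. XAF1, a pro-apoptotic interferon target, was at 59.6, 69.5 and 49.6 CPM in UHRF1-AID and 3.76, 4.04 and 4.57 CPM in WT. UHRF1-AID replicate 2 was the highest library for each of these genes, and the other UHRF1-AID libraries were also well above WT.

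IFI27, a small membrane protein induced by interferon, was at 547, 707 and 484 CPM in UHRF1-AID and 99, 112 and 104 CPM in WT (log2 fold change 2.47 ± 0.30, edgeR adjusted p = 8.05e-07). UBA7, the activating enzyme that attaches ISG15 to its targets, was at 23.6, 32.3 and 23.9 CPM in UHRF1-AID and 2.34, 3.11 and 3.06 CPM in WT. ISG15 itself, the ubiquitin-like modifier, was at 1079, 1709 and 1104 CPM in UHRF1-AID and 854, 981 and 913 CPM in WT, so that the groups did not overlap but the log2 fold change of 0.50 ± 0.22 did not pass the test (edgeR adjusted p = 0.105). OAS1 was at 82.7, 132 and 83.9 CPM in UHRF1-AID and 116, 118 and 113 CPM in WT, with UHRF1-AID replicate 2 above and the others below WT (edgeR adjusted p = 0.652).

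Of 19 genes of cytosolic nucleic acid sensing, 3 rose and 1 fell (14.3% and 10.5% of all genes), so the number that rose was near the share over all genes. DHX58, which encodes the RNA sensor LGP2, was at 38.3, 44.3 and 40.2 CPM in UHRF1-AID and 5.86, 6.49 and 8.21 CPM in WT (log2 fold change 2.57 ± 0.15, edgeR adjusted p = 4.9e-15). CGAS, the sensor of cytosolic DNA, was at 0.578, 0.791 and 0.151 CPM in UHRF1-AID and at 0.0767, 0.0439 and 0.0343 CPM in WT, a change between low levels that passed the test (edgeR adjusted p = 0.00184). Its adaptor STING1 was at 23.3, 16 and 32.8 CPM in UHRF1-AID and 20.9, 24.5 and 24.1 CPM in WT, which overlapped (edgeR adjusted p = 0.879). The RNA sensors RIGI and IFIH1 did not pass the test, at 112 and 114 CPM in UHRF1-AID and 95.8 and 93.5 CPM in WT. SAMHD1, which hydrolyses deoxynucleotides, rose, and ENPP1, which degrades the messenger made by cGAS, fell.

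Antigen presentation genes rose in part. Of 27 members 16 rose and 0 fell (14.3% and 10.5% of all genes), with a median log2 fold change of 0.441, and 3 were more than 2-fold higher. This count depended on single libraries: 9 rose, with a median of 0.27, without UHRF1-AID replicate 2, and 10 rose without WT replicate 1. PSMB8, a catalytic subunit of the immunoproteasome, was at 15.8, 31.5 and 15.7 CPM in UHRF1-AID and 2.38, 2.85 and 2.06 CPM in WT (log2 fold change 3.12 ± 0.26, edgeR adjusted p = 1.94e-10). The class II genes HLA-DPA1 and CD74, the invariant chain, were at 14.7 and 20.2 CPM in UHRF1-AID and at 4.11 and 7.36 CPM in WT, and HLA genes can share reads. The transporter TAP1 and the light chain B2M also rose, while PSMB9, PSMB10 and the class II gene HLA-DRA (2.98 CPM in UHRF1-AID, 5.41 CPM in WT) did not pass the test.

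Genes of the senescence-associated secretory phenotype moved in both directions. Of 61 listed members 44 were tested, of which 13 rose and 7 fell (14.3% and 10.5% of all genes). The median log2 fold change was 0.216, or 0.334 without UHRF1-AID replicate 2. Without that library 12 rose and 5 fell, and between 10 and 12 rose with any one library left out. TNFRSF1B, a receptor of tumour necrosis factor, was at 23.4, 31.9 and 33.7 CPM in UHRF1-AID and at 0.613, 0.57 and 0.618 CPM in WT, a 49.5-fold difference of means (edgeR adjusted p = 1.36e-17). The adhesion receptor ICAM1 was at 9, 8.35 and 12.1 CPM in UHRF1-AID and 0.115, 0.482 and 0.275 CPM in WT. The cytokine IL32 was at 2.96, 5.13 and 4.3 CPM in UHRF1-AID and 0.46, 0.175 and 0.172 CPM in WT. For these 3 genes the lowest UHRF1-AID library was several times above the highest WT library.

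The collagenases MMP1 and MMP13 and the insulin-like growth factor binding proteins IGFBP3 and IGFBP4 were low or silent in WT. In contrast, IGFBP2 was at 271 CPM in UHRF1-AID and 184 CPM in WT and rose. IGFBP6 and IGFBP7 were at 83.5 and 12.3 CPM in WT and did not pass the test. MMP1 was at 10.8, 2.21 and 5.51 CPM in UHRF1-AID and had 1 read in WT, and UHRF1-AID replicate 2 was the lowest of its group. MMP13 was at 1.37, 2.63 and 2.03 CPM in UHRF1-AID and 0 in WT, which makes it at least 53-fold higher. IGFBP3 was at 6.57, 2.12 and 7.54 CPM in UHRF1-AID and 0.0767, 0.307 and 0.103 CPM in WT, and IGFBP4 at 2.78, 3.51 and 5.06 CPM in UHRF1-AID and 0 in WT. The chemokine CCL5 was at 1.41, 1.93 and 0.787 CPM in UHRF1-AID and 0.575, 0.614 and 0.412 CPM in WT, a change that passed the test with all libraries (edgeR adjusted p = 0.0302) but not when any one of them other than UHRF1-AID replicate 3 was left out, CCL5 then having a log2 fold change of 1.03 to 1.47. The interleukins CXCL8 (1.04 CPM in UHRF1-AID, 1.36 CPM in WT) and IL1A (0.334 CPM in UHRF1-AID, 0.227 CPM in WT) did not pass the test. The members that fell were AREG, EREG, SPP1, MMP7, FGF2, PLAU and TNFRSF1A. Of 21 NF-kappa B genes 3 rose (BCL3, CYLD and NFKBIA) and 1 fell (NFKB1), against 14.3% and 10.5% of all genes, so the number that rose was at the share over all genes. Without UHRF1-AID replicate 1 or WT replicate 3, 1 rose, and NFKB1 kept its call only without UHRF1-AID replicate 1.

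Of 35 tested p53 targets 15 rose and 0 fell (14.3% and 10.5% of all genes), all by less than 2-fold, with a median log2 fold change of 0.249, or 0.204 with the member at 0 reads in WT at its floor. Between 10 and 12 rose with a library left out. PLK2, a kinase induced by p53, was at 39.7, 33.1 and 43.6 CPM in UHRF1-AID and 18.7, 20.8 and 20.8 CPM in WT (log2 fold change 0.95 ± 0.15, edgeR adjusted p = 7.26e-06). FUCA1, a lysosomal fucosidase, was at 82.8, 110 and 92.6 CPM in UHRF1-AID and 52.5, 52.7 and 52.9 CPM in WT. The ones that rose also included BBC3, which encodes the apoptosis inducer PUMA, and ZMAT3. CDKN1A, which encodes the cyclin-dependent kinase inhibitor p21, was at 217, 306 and 264 CPM in UHRF1-AID and 236, 239 and 238 CPM in WT, with UHRF1-AID replicate 1 below WT and the others above (log2 fold change 0.14 ± 0.13, edgeR adjusted p = 0.44).

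CDKN2A, the locus of p16 and p14ARF, was at 68.3, 70.4 and 71 CPM in UHRF1-AID and 56.3, 64.7 and 57.4 CPM in WT. The groups did not overlap but the change did not pass the test (log2 fold change 0.23 ± 0.11, edgeR adjusted p = 0.132), whereas it passed when the 6 libraries were fitted alone (CDKN2A log2 fold change 0.25, edgeR adjusted p = 0.0383). Of 20 cell-cycle inhibitors and senescence markers 4 rose and 4 fell (14.3% and 10.5% of all genes), and 2 rose and 2 fell without UHRF1-AID replicate 2, without WT replicate 1 or without WT replicate 2. GLB1, the lysosomal beta-galactosidase used as a marker of senescence, was at 70.3 CPM in UHRF1-AID and 54.2 CPM in WT and rose, while LMNB1, the lamin that is lost in senescence, was at 120 CPM in UHRF1-AID and 140 CPM in WT and did not pass. Among 32 lysosomal genes 12 rose and 1 fell (14.3% and 10.5% of all genes). Those that rose included CTSD and CTSB, which encode cathepsins, and NEU1, a sialidase. Without UHRF1-AID replicate 2, 10 lysosomal genes rose.

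DNA replication and E2F target genes fell as a group. Of 53 members 40 fell and 0 rose (10.5% and 14.3% of all genes), with a median log2 fold change of -0.47 and no member beyond 2-fold. With a library left out the number that fell lay between 33 and 40. The promoter of MCM6, a subunit of the replicative helicase, is shown because it holds the element bound by E2F factors and the gene had the smallest p of the list. The 250 bases upstream of the RefSeq start are at chr2:135876444-135876693 on the minus strand of GRCh38.p14, and capitals mark 4 matches to TTTNNCGC, searched on both strands, which overlap in pairs at 2 places:
MCM6: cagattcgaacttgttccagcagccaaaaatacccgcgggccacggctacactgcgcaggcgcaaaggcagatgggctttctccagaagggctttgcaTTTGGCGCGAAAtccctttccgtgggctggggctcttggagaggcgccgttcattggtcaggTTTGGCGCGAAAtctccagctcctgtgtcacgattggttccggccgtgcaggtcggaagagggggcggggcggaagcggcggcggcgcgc
Of the 44 replication genes with a RefSeq window 19 (43.2%) held this element, against 7.15% of all genes of the table. Of the 40 members that fell, 32 had a window and 15 of these (46.9%) held the element, a share near that of the whole list.

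MCM6 was at 75.6, 69.3 and 71.2 CPM in UHRF1-AID and at 123, 117 and 118 CPM in WT (log2 fold change -0.73 ± 0.08, edgeR adjusted p = 9.82e-09). CDC6, which loads the helicase on origins, was at 42.7, 42.2 and 38.2 CPM in UHRF1-AID and 68.4, 64.4 and 64.4 CPM in WT. The cyclin CCNE2 was at 15.5, 9.49 and 13.5 CPM in UHRF1-AID and 23.9, 23.6 and 22.1 CPM in WT. All 3 genes were lower in each UHRF1-AID library than in any WT library, and 6792 of the 15415 genes tested had no overlap. The other helicase subunits MCM2, MCM3, MCM4, MCM5 and MCM7 fell, as did the clamp PCNA and the transcription factors E2F1, E2F2, E2F7 and E2F8. TK1 (311 CPM in UHRF1-AID, 293 CPM in WT) and POLD1 (77.7 CPM in UHRF1-AID, 74.6 CPM in WT) did not pass the test.

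**Figure D3:**
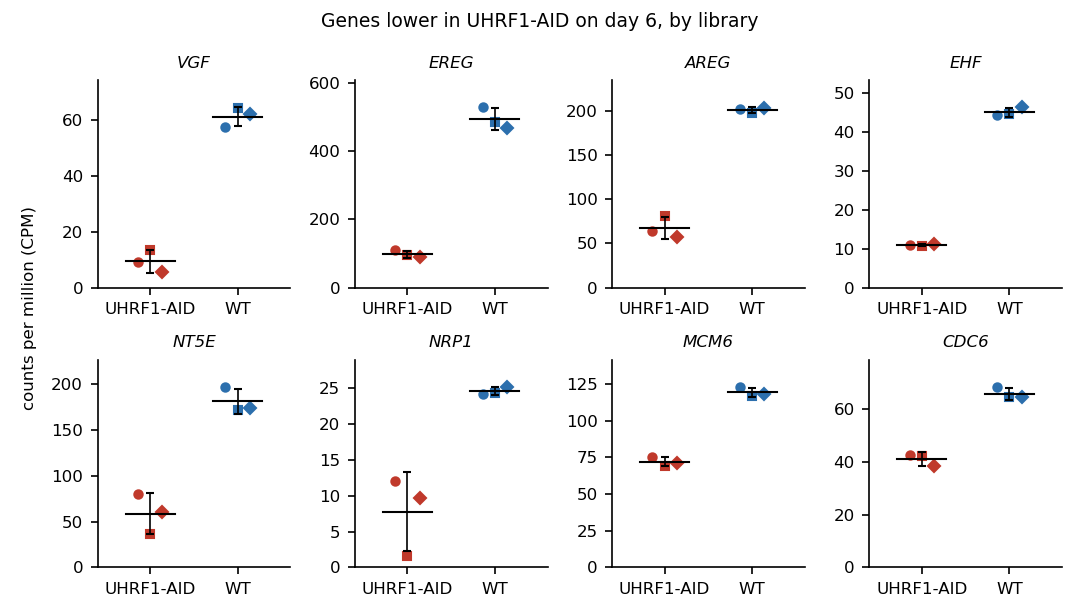
Levels of 8 genes that were lower in UHRF1-AID, in CPM from 0 in each library on day 6, with UHRF1-AID on the left and WT on the right of each panel. Circles, squares and diamonds are replicates 1, 2 and 3, and the line and bar are the mean and SD. Every UHRF1-AID library lies below every WT library, with UHRF1-AID replicate 2 well below the other UHRF1-AID libraries for NT5E and NRP1. Of the 15415 genes tested, 6792 had no overlap between the groups.

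Mitotic genes did not fall with the replication genes. Of 53 members 13 rose and 1 fell (14.3% and 10.5% of all genes), with a median log2 fold change of 0.121. Without UHRF1-AID replicate 2 only 4 rose, and 8 or 6 rose without WT replicate 1 or WT replicate 2. KIF20A, a kinesin of cytokinesis, was at 98.9, 88.4 and 97.9 CPM in UHRF1-AID and 69.8, 72 and 63.8 CPM in WT (log2 fold change 0.47 ± 0.08, edgeR adjusted p = 4.54e-05). CCNB1, the cyclin of mitotic entry, was at 159, 204 and 158 CPM in UHRF1-AID and 126, 129 and 126 CPM in WT. CDK1 (89.6 CPM in UHRF1-AID, 93.1 CPM in WT) and FOXM1 (98.7 CPM in UHRF1-AID, 97.6 CPM in WT) did not pass. The gene that fell was MYBL2, a transcription factor that is itself an E2F target, at 61.5, 83.8 and 68.7 CPM in UHRF1-AID and 104, 99.8 and 100 CPM in WT.

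Genes of MYC and ribosome biogenesis fell: 22 of 40 fell and 0 rose (10.5% and 14.3% of all genes), with a median log2 fold change of -0.269. With a library left out between 16 and 19 fell. MYC was at 49.8 CPM in UHRF1-AID and 86.1 CPM in WT (log2 fold change -0.79 ± 0.15). RRS1, a ribosome assembly factor, was at 16.6 CPM in UHRF1-AID and 30.1 CPM in WT, and the helicase DDX21 was at 100 CPM in UHRF1-AID and 145 CPM in WT. The nucleolar proteins NCL and NPM1 did not pass the test.

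**Figure D4:**
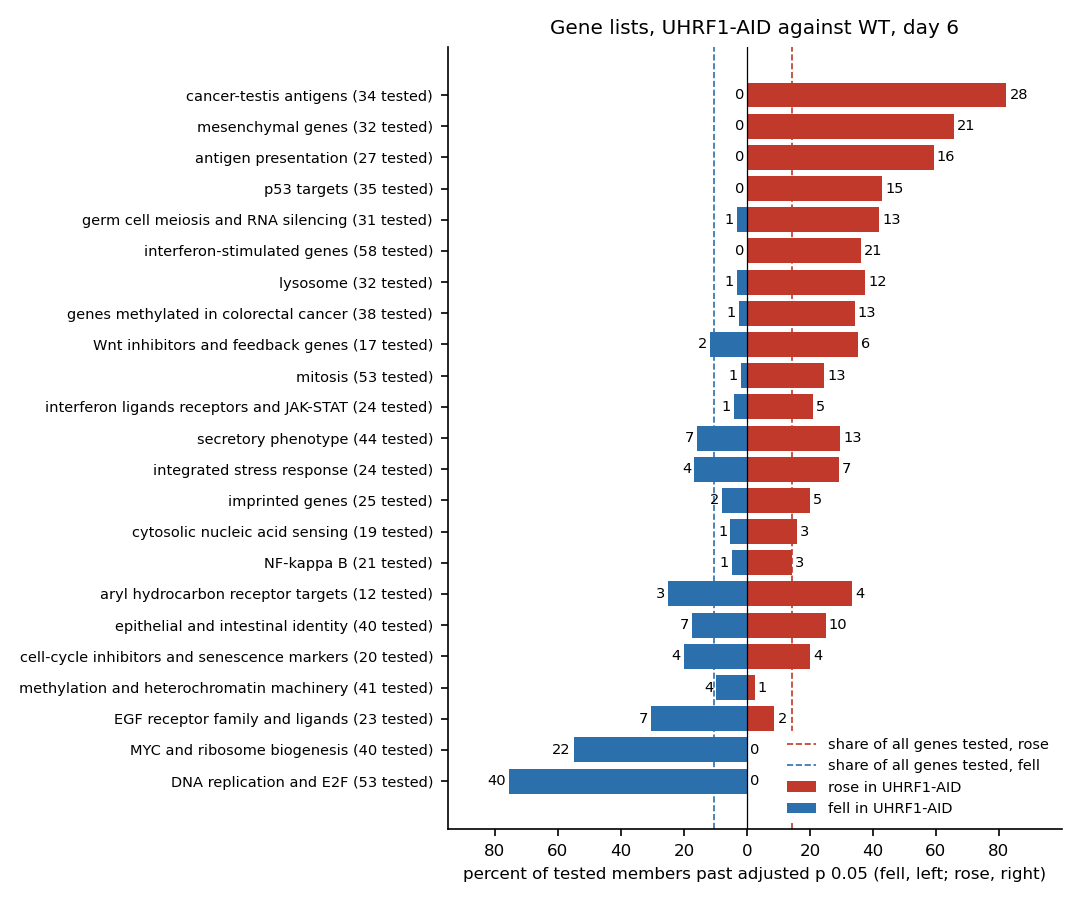
Share of the tested members of each gene list, markers of other cell types left out, that rose (to the right) or fell (to the left) in UHRF1-AID against WT on day 6 at an edgeR adjusted p below 0.05. Dashed lines mark the shares over all genes, 14.3% up and 10.5% down. Of the lists plotted, cancer-testis antigens reach furthest to the right and DNA replication genes furthest to the left.

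Genes that are commonly methylated in colorectal cancer changed in part. Of 56 listed members 38 were tested, of which 13 rose and 1 fell (14.3% and 10.5% of all genes), with a median log2 fold change of 0.643. Of the tested members 7 had 0 reads in WT. Such members passed the filter only through a group that expressed them and cannot fall, so the counts describe the members tested. With a library left out between 9 and 12 rose, and 11 rose without UHRF1-AID replicate 2. SPARC, a matrix glycoprotein, was at 10.2, 7.12 and 22.4 CPM in UHRF1-AID and had 1 read in WT. GATA5, a transcription factor of gut endoderm, was at 1.37, 2.63 and 2.12 CPM in UHRF1-AID and 0 in WT, and is at least 53.8-fold higher. UNC5C, a netrin receptor, was at 4.33, 5.92 and 5.63 CPM in UHRF1-AID and 0.0767, 0 and 0 CPM in WT. Other members did not pass the test, among them MGMT, which repairs alkylated DNA (18 CPM in UHRF1-AID, 16.7 CPM in WT), RUNX3 (39.7 CPM in UHRF1-AID, 39 CPM in WT) and HIC1 (22.9 CPM in UHRF1-AID, 22.8 CPM in WT). Of 41 listed imprinted genes 25 were tested, of which 5 rose and 2 fell (14.3% and 10.5% of all genes). Without UHRF1-AID replicate 1, 4 fell, and 3 rose without UHRF1-AID replicate 2, UHRF1-AID replicate 3, WT replicate 1 or WT replicate 2. DLK1, a Notch-like ligand, was at 0.903, 0.253 and 0.818 CPM in UHRF1-AID and 0 in WT, and IGF2 was at 177 CPM in UHRF1-AID and 146 CPM in WT without passing the test.

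Mesenchymal and matrix genes rose: 21 of the 32 tested of 42 listed, with 0 that fell (14.3% and 10.5% of all genes), a median log2 fold change of 0.754 and 12 above 2-fold. Between 15 and 19 rose with a library left out. THY1, a surface protein of fibroblasts, was at 5.31, 5.28 and 5.45 CPM in UHRF1-AID and 0 in WT, and is at least 139-fold higher. COL6A3, a chain of collagen VI, was at 29.4, 24.2 and 18.8 CPM in UHRF1-AID and 0.23, 0.175 and 0.412 CPM in WT (log2 fold change 6.40 ± 0.32, edgeR adjusted p = 2.17e-16). ENG, a co-receptor for transforming growth factor beta, was at 19.6, 18.6 and 28 CPM in UHRF1-AID and 2.45, 1.54 and 2.03 CPM in WT.

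The cultures were checked against markers of other cell types. The summed level of 8 colon epithelial markers was 3390 to 4460 CPM in UHRF1-AID and 4290 to 4540 CPM in WT. EPCAM, the defining epithelial marker, was at 215, 394 and 217 CPM in UHRF1-AID and 284, 271 and 276 CPM in WT, so that UHRF1-AID replicate 2 lay above and the others below WT. The sum of 8 fibroblast markers was 57.8 to 89.8 CPM in UHRF1-AID and 35.8 to 39.7 CPM in WT and was nearly all COL1A1. All 4 fibroblast markers tested rose: THY1, PDGFRB (1.6 CPM in UHRF1-AID, 0.165 CPM in WT), COL3A1 (0.53 CPM in UHRF1-AID, 0.0649 CPM in WT) and COL1A1 (64.2 CPM in UHRF1-AID, 37.3 CPM in WT), and COL3A1 lost its call without UHRF1-AID replicate 3, WT replicate 1 or WT replicate 3. The others, DCN, LUM, PDGFRA and FAP, had 12, 27, 9 and 3 reads in UHRF1-AID and 2, 0, 0 and 0 reads in WT. The sum of 10 immune markers was 15.8 to 20 CPM in UHRF1-AID and 33.7 to 38 CPM in WT and followed CD68, which fell (11.9 CPM in UHRF1-AID, 33.9 CPM in WT). CD3D had 93 reads in UHRF1-AID and 0 in WT, CD4 was at 1.91 CPM in UHRF1-AID and 0.284 CPM in WT, and CSF1R was at 1.33 CPM in UHRF1-AID and 0.411 CPM in WT, and these 3 rose. The pan-leukocyte marker PTPRC, at 0.289 CPM in UHRF1-AID and 0.042 CPM in WT, did not pass the test. The sum of 6 endothelial markers was 2.28 to 2.57 CPM in UHRF1-AID and 1.27 to 1.49 CPM in WT. The part of these markers in the results was not tested.

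Epithelial and intestinal genes went both ways: of 52 listed members 40 were tested, of which 10 rose and 7 fell (14.3% and 10.5% of all genes), and 11 fell without UHRF1-AID replicate 2. CDX2, a transcription factor of intestinal identity, was at 41.1, 56 and 45.6 CPM in UHRF1-AID and 19.4, 19.1 and 22.1 CPM in WT (log2 fold change 1.23 ± 0.15, edgeR adjusted p = 9.89e-08). The secretory products TFF2, TFF3 and MUC5AC were at 1.64, 0.717 and 0.68 CPM in UHRF1-AID and 0 in WT, and the brush-border peptidase ANPEP was at 2.8 CPM in UHRF1-AID and 0.0626 CPM in WT. Keratin 19 (KRT19), the liver and gut regulator HNF4A and the splicing regulators ESRP1 and ESRP2 fell.

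The lower genes had moderate folds and clear levels in WT. The promoter of VGF, which encodes a secreted neuropeptide precursor, is shown because VGF had the lowest log2 fold change among the 10 lowest genes named and holds a full cyclic AMP response element. The 250 bases upstream of the RefSeq start are at chr7:101165570-101165819 on the minus strand of GRCh38.p14, and capitals mark 1 match to the palindrome TGACGTCA, which begins 79 bases before the start:
VGF: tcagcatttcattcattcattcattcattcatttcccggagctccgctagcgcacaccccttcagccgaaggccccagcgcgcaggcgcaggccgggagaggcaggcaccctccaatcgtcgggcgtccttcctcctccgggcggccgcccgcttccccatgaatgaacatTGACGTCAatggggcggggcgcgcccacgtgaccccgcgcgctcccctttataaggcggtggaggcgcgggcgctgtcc
This element is in 2.03% of all genes of the table. VGF was at 9.1, 13.4 and 5.54 CPM in UHRF1-AID and at 57.5, 64.1 and 62 CPM in WT (log2 fold change -2.71 ± 0.31, edgeR adjusted p = 2.11e-07).

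Among the lower genes were 2 ligands of the EGF receptor. EREG, epiregulin (chromosome 4, 74365145 to 74388749), was at 110, 94.9 and 90.1 CPM in UHRF1-AID and at 530, 487 and 468 CPM in WT (log2 fold change -2.33 ± 0.13, edgeR adjusted p = 3.88e-15). AREG, amphiregulin, its neighbour on chromosome 4, was at 64.3, 80.8 and 57 CPM in UHRF1-AID and at 202, 197 and 203 CPM in WT (log2 fold change -1.58 ± 0.15). Both ligands were lower in each UHRF1-AID library than in any WT library. The groups did not overlap in 6792 of the 15415 genes tested.

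Other members of the pathway moved less. Of 26 listed genes of the EGF receptor family 23 were tested, of which 2 rose and 7 fell (14.3% and 10.5% of all genes), and 1 rose without UHRF1-AID replicate 3. The receptor EGFR (146 CPM in UHRF1-AID, 179 CPM in WT) and the ligand TGFA (77.7 CPM in UHRF1-AID, 88.1 CPM in WT) did not pass the test. PHLDA1 and FOSL1, genes induced by growth factor signalling, were at 403 and 31.4 CPM in UHRF1-AID and at 686 and 59.8 CPM in WT and fell. The phosphatase DUSP6 was at 177, 114 and 242 CPM in UHRF1-AID and 96.1, 100 and 105 CPM in WT and the ligand HBEGF at 9.61, 15.3 and 9.66 CPM in UHRF1-AID and 8.05, 7.54 and 7.83 CPM in WT. Both rose with all libraries, but DUSP6 lost its call without UHRF1-AID replicate 3 (log2 fold change 0.54, edgeR adjusted p = 0.114) and HBEGF without UHRF1-AID replicate 2 (log2 fold change 0.30, edgeR adjusted p = 0.175).

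Further genes with large decreases were EHF, an epithelial ETS factor, at 11.1, 10.8 and 11.1 CPM in UHRF1-AID and 44.2, 44.6 and 46.4 CPM in WT, and NT5E, the surface enzyme CD73 that makes adenosine, at 79.9, 36.1 and 60.6 CPM in UHRF1-AID and 197, 173 and 175 CPM in WT. EMP1, an epithelial membrane protein, was at 4.05, 1.46 and 3.69 CPM in UHRF1-AID and 14.8, 11.9 and 13.1 CPM in WT. CA2, a carbonic anhydrase, GPAT3, an acyltransferase of lipid synthesis, WNT7B, a Wnt ligand, and PKIB, an inhibitor of protein kinase A, had mean levels of 3.93, 12.7, 7.27 and 11.4 CPM in UHRF1-AID and 14.9, 40.7, 22.1 and 34.4 CPM in WT. NRP1, a semaphorin and VEGF co-receptor, was at 12.1, 1.55 and 9.72 CPM in UHRF1-AID and 24.2, 24.3 and 25.2 CPM in WT, and its call (edgeR adjusted p = 0.0385) was lost without any one library other than UHRF1-AID replicate 1. The log2 fold change of NRP1 was -1.66 with all libraries and -1.17 without UHRF1-AID replicate 2.

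Wnt feedback genes were split. Of 21 listed members 17 were tested, of which 6 rose and 2 fell (14.3% and 10.5% of all genes). NOTUM, a secreted enzyme that inactivates Wnt proteins, was at 246, 383 and 273 CPM in UHRF1-AID and 32.7, 38.5 and 34.3 CPM in WT (log2 fold change 3.10 ± 0.28, edgeR adjusted p = 4.86e-09). DKK4, a secreted inhibitor of the Wnt co-receptor, was at 39.4, 12 and 54 CPM in UHRF1-AID and 0.0383, 0.0439 and 0.0343 CPM in WT, and UHRF1-AID replicate 2 was the lowest of its group. SP5, a transcription factor induced by Wnt, and AXIN2, a feedback inhibitor, rose to 28.9 and 57.6 CPM in UHRF1-AID, against 8.03 and 28.2 CPM in WT. In contrast DKK1 was at 42.3, 91 and 57.6 CPM in UHRF1-AID and 151, 155 and 143 CPM in WT and fell, as did NKD2 (5.75 CPM in UHRF1-AID, 14.9 CPM in WT).

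Stress pathways gave mixed results. Of 24 genes of the integrated stress response 7 rose and 4 fell (14.3% and 10.5% of all genes), and 8 fell without UHRF1-AID replicate 2. The chaperone HSPA5 (1673 CPM in UHRF1-AID, 1181 CPM in WT) and the transcription factor XBP1 (103 CPM in UHRF1-AID, 72.9 CPM in WT) rose, while ATF4 (204 CPM in UHRF1-AID, 252 CPM in WT) and STC2 (25.5 CPM in UHRF1-AID, 48.4 CPM in WT) fell. Of 12 targets of the aryl hydrocarbon receptor 4 rose and 3 fell (14.3% and 10.5% of all genes), and 2 rose and 1 fell without UHRF1-AID replicate 2, without UHRF1-AID replicate 3 or without WT replicate 1. Without WT replicate 3, 1 fell.

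The day 6 differences were compared with those of UHRF1-AID against WT on days 2 and 8, which share no library with day 6. Day and culture cannot be told apart, and WT itself differed between days: UHRF1 mRNA in WT was at 52 CPM on day 2, 125 CPM on day 6 and 149 CPM on day 8. Of the 1036 genes higher on day 6, 521 (50.3%) were also more than 2-fold higher on day 2 and 959 (92.6%) on day 8, where 4.04% and 9.72% of all genes were called higher. These were 83.8% of the genes higher on day 2 and 64% of those higher on day 8. Of the 104 lower genes 25 (24%) were also more than 2-fold lower on day 2 and 67 (64.4%) on day 8, where 3.31% and 1.57% of all genes were called lower.

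In a direct test of the difference between days, 507 genes (3.29%) had a higher log2 fold change on day 6 than on day 2 and 24 (0.156%) a lower one, by more than 2-fold. Between days 6 and 8, 42 genes (0.272%) were higher and 37 (0.24%) lower on day 6. The 24 became 41 without UHRF1-AID replicate 1, and the 37 became 20 and 22 without WT replicate 2 and WT replicate 3.

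The lists followed different courses. Cancer-testis antigens were called on all days, with 27 of 34 members up at any fold on day 2 (12.1% of all genes), 28 on day 6 and 29 on day 8 (24.2% of all genes). With few or no reads in WT, the direct test between days had little power for these genes, and nothing is drawn from it. Interferon-stimulated genes had 8 members up and 5 down on day 2 (12.1% and 14.4% of all genes), counts near or below those shares. On day 6, 21 were up (14.3% of all genes), and on day 8, 43 were up and 2 down (24.2% and 21% of all genes). In the direct test 7 of 58 had a higher log2 fold change on day 6 than on day 2 and 0 a lower one (7.18% and 2.04% of all genes), while against day 8 the day 6 value was higher for 1 and lower for 5 (2.08% and 1.39% of all genes). The 5 became 3 without any one library other than UHRF1-AID replicate 2. Replication genes fell on all days, 40, 40 and 49 of 53 on days 2, 6 and 8 (14.4%, 10.5% and 21% of all genes).

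The mitotic genes differed most between days. On day 2, 34 of 53 fell and 0 rose (14.4% and 12.1% of all genes), and on day 8, 51 fell and 0 rose (21% and 24.2% of all genes), whereas 13 rose on day 6. In the direct test 30 of 53 had a higher log2 fold change on day 6 than on day 2 (7.18% of all genes). For 50 of 53 day 6 exceeded day 8 (2.08% of all genes). Without UHRF1-AID replicate 2 these counts were 19 and 45, and without WT replicate 2 the first was 18. CCNB1 averaged 159 CPM in UHRF1-AID and 195 CPM in WT on day 2, 174 CPM in UHRF1-AID and 127 CPM in WT on day 6, and 101 CPM in UHRF1-AID and 154 CPM in WT on day 8. The WT level of this gene was thus lowest on day 6.

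**Figure D5:**
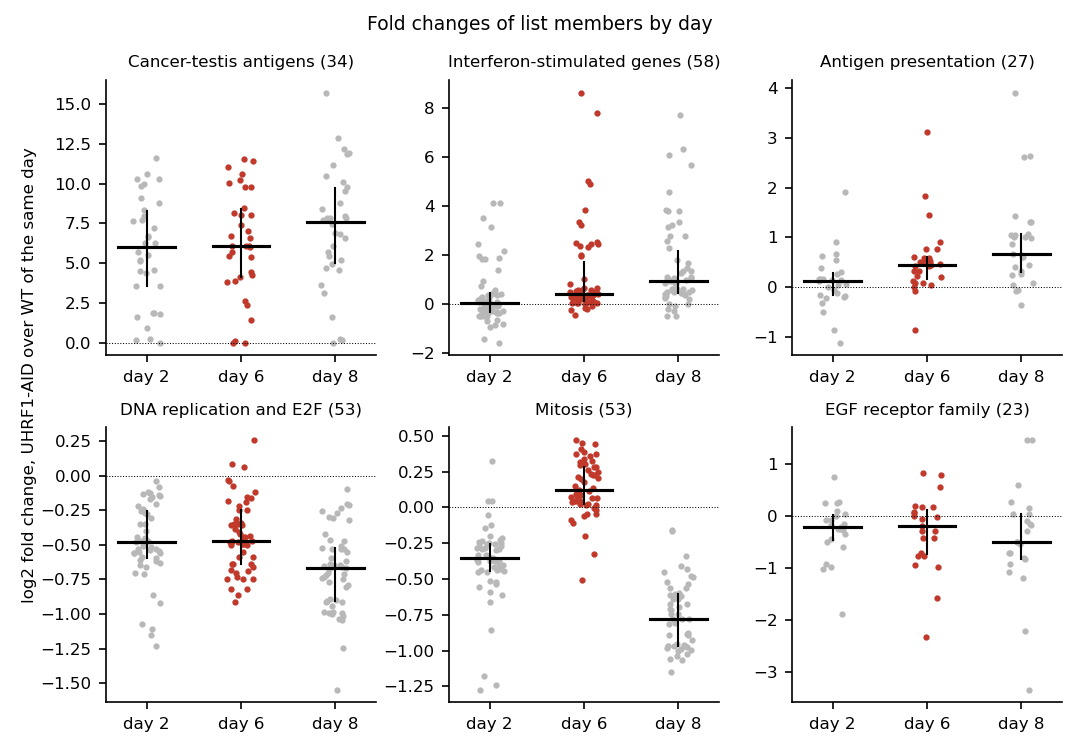
Log2 fold change of UHRF1-AID over WT of the same day for the members of 6 gene lists on days 2, 6 and 8. Points are genes, horizontal lines medians and vertical lines quartiles. Cancer-testis antigens are high on each day, and mitotic genes have a median of -0.354, 0.121 and -0.777 on days 2, 6 and 8.

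The UHRF1 degron was also set directly against the DNMT1 degron on day 6. DNMT1 is the methyltransferase that UHRF1 recruits. In this test UHRF1-AID exceeded DNMT1-AID by more than 2-fold in 357 genes (2.32%) and fell short of it in 49 (0.318%), and the 49 became 28 without UHRF1-AID replicate 3. Of the cancer-testis antigens 15 of 34 were higher in UHRF1-AID and 0 lower (5.52% and 5.1% of all genes at any fold). MAGEA1 averaged 15.9 CPM in UHRF1-AID and 2.42 CPM in DNMT1-AID, and MAGEA4 averaged 148 CPM in UHRF1-AID and 24.3 CPM in DNMT1-AID. DCAF4L1, a member of the WD-repeat family, averaged 30 CPM in UHRF1-AID and 2.02 CPM in DNMT1-AID.

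Other lists differed less or in the other direction. Of all genes 5.52% were higher and 5.1% lower in UHRF1-AID at any fold in this test. Of the replication genes 17 of 53 were lower in UHRF1-AID (5.1% of all genes), and 8 without UHRF1-AID replicate 3. Of the genes of MYC and ribosome biogenesis 19 of 40 were lower in UHRF1-AID (5.1% of all genes). Of the p53 targets 6 of 35 were lower (5.1% of all genes), or 3 without UHRF1-AID replicate 3. These 3 were near the share over all genes. For interferon-stimulated genes 1 of 58 was higher and 1 lower (5.52% and 5.1% of all genes), both below those shares. BST2 averaged 475 CPM in UHRF1-AID and 542 CPM in DNMT1-AID, and the log2 difference of -0.19 ± 0.17 did not pass the test (edgeR adjusted p = 0.532). NOTUM, at 300 CPM in UHRF1-AID and 102 CPM in DNMT1-AID, was higher in UHRF1-AID. In all, 6 of 17 Wnt feedback genes were higher (5.52% of all genes). Antigen presentation had 3 of 27 members lower in UHRF1-AID (5.1% of all genes), and 9 without UHRF1-AID replicate 2. Both degrons were also tested against the same WT libraries, where the interferon-stimulated genes had 21 members up in UHRF1-AID and 25 in DNMT1-AID (8.84% of all genes), the cancer-testis antigens 28 and 23, and the replication genes 40 and 4 members down (4.35% of all genes in DNMT1-AID).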

How the data were processed

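Polyadenylated RNA was sequenced in 36 libraries (4 genotypes on 3 days, 3 replicates each), and 6 of them make up the comparison. The authors aligned reads to hg38 with STAR and deposited counts per gene from featureCounts, with no normalization; the annotation release, strand setting and treatment of multi-mapping reads are not given in the sources used here. Of 60648 gene identifiers in the deposited counts 60462 were matched to a symbol, and 19942 protein-coding genes were kept, of which 15415 passed filterByExpr with a minimum count of 10. edgeR 4.0.16 (R 4.3.3) was fitted over all 36 libraries with 1 mean per group, TMM scaling and robust quasi-likelihood tests (24 residual degrees of freedom), and p-values were adjusted by Benjamini-Hochberg over all genes tested. Genes above or below 2-fold needed an adjusted p below 0.05 and a log2 fold change beyond 1; members of lists rose or fell at an adjusted p below 0.05. The procedure was tested on simulated data. A fold against a group at 0 reads used a floor of 3 reads over the group, and intervals cover counting error only.

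The members and the gene lists were chosen with earlier results of these data known. Genes named were the targeted genes, those the study follows, the 10 highest and 10 lowest log2 fold changes at a mean of at least 5 CPM without overlap, up to 4 members of each list in its main direction and up to 2 in the other, and up to 3 genes each way per difference test; further list members were named after their values were seen, to complete a count. Promoters and motif shares came from RefSeq (GRCh38.p14), where 114 of 158 named genes had a window. Alternatives were DESeq2 1.42.0, other scalings, no filter, all gene types, a GC and length correction, the 6 libraries alone, a replicate block, and each library left out. Some list members are not reported by name.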

Additional observations from a re-analysis of the deposited data

Results flagged for a closer look

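Differences between days and between degrons were tested directly with edgeR over all genes, and the genes below are those with the smallest p in each direction. For the effect of UHRF1-AID on day 6 minus that on day 2, the log2 difference was 1.94 for RNF213, a ubiquitin ligase induced by interferon (SE 0.21, adjusted p = 3.53e-07), 1.56 for DNM1, dynamin 1, and 2.36 for TBX1, a T-box transcription factor. RNF213 averaged 588 CPM in UHRF1-AID and 217 CPM in WT on day 6, but 17.3 CPM in UHRF1-AID and 24.5 CPM in WT on day 2. The log2 difference was -1.41 for EREG, -0.839 for MT1E, a metallothionein, and -1.32 for CD68, a lysosomal glycoprotein. These 6 kept their calls with each day 6 library left out.

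For day 6 minus day 8 the log2 difference was 1.01 for EREG, 0.947 for IL6R, the interleukin 6 receptor, and 3.21 for FGD2. IL6R (adjusted p = 0.0301) and FGD2 (adjusted p = 0.0376) lost their calls in 4 and 3 of 6 fits with a day 6 library left out. The difference was -2.24 for ENG, -1.49 for SULT1A1, a sulfotransferase, and -2.48 for DNASE1L2, a nuclease, which kept their calls.

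For UHRF1-AID minus DNMT1-AID on day 6 the log2 difference was 3.91 for DCAF4L1, 2.73 for RASAL3, a Ras GTPase-activating protein, and 1.74 for ENG, and it was -1.16 for EREG, -0.904 for ZDHHC6, a palmitoyltransferase, and -1.26 for IL6R. EREG averaged 98.3 CPM in UHRF1-AID and 220 CPM in DNMT1-AID, and IL6R averaged 7.91 CPM in UHRF1-AID and 19 CPM in DNMT1-AID.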

How the results depend on the processing

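With 1036 genes higher and 104 lower in UHRF1-AID, the numbers were 1313 and 167 when all gene types were tested, and the other settings gave 780 to 1092 higher and 101 to 133 lower, apart from libraries left out. With a day 6 library left out, 888 to 1032 were higher and 89 to 124 lower. The same fits gave 452 to 531 genes with a higher and 17 to 41 with a lower effect on day 6 than on day 2 (507 and 24 with all libraries), 34 to 55 and 20 to 44 against day 8 (42 and 37), and 266 to 349 and 28 to 69 for UHRF1-AID against DNMT1-AID (357 and 49). No named gene reversed direction under the settings run, which covered 158 genes, or 154 in the fit of the 6 libraries alone. Same-numbered libraries deviated together with r of 0.0456, 0.0289 and 0.0116, so the numbers were not taken as pairs; with the replicate block 1046 genes were higher and 108 lower, and IFNL1 passed the threshold (adjusted p = 0.048). Fitted on the 6 libraries alone, UHRF1 passed it (log2 fold change 0.27, adjusted p = 0.019). Calls at levels below 1 CPM, such as CGAS, rest on few reads.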

Other observations

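Non-coding genes outside the protein-coding test changed as well. Of 4594 lncRNA genes in the fit to all gene types, 218 (4.75%) were more than 2-fold higher in UHRF1-AID and 49 lower. Of 15404 protein-coding genes in the same fit, 1022 (6.63%) were higher and 100 lower, so lncRNA genes were called higher less often. Among imprinted lncRNAs, MEG3 had 234 reads in the 3 UHRF1-AID libraries and 0 in WT. DLK1, its neighbour on chromosome 14, had 60 reads in UHRF1-AID and 0 in WT. H19 had 1581 reads in UHRF1-AID and 210 in WT. KCNQ1OT1 had 429 reads in UHRF1-AID and 421 in WT, and HYMAI had 166 reads in UHRF1-AID and 129 in WT. These are raw reads, not scaled for depth. The libraries held 26121345 to 31772459 counts in UHRF1-AID and 21588262 to 27611316 in WT.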
